A study of Mus musculus with 26 samples.

Results

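The miR-132 and miR-212 cluster is a pair of neighbouring microRNA (miRNA) genes whose hairpins each give 2 mature products, one from the 5′ arm (5p) and one from the 3′ arm (3p). Its 4 mature products in mouse (mmu), mmu-miR-132-3p, mmu-miR-132-5p, mmu-miR-212-3p and mmu-miR-212-5p, were chosen by name and make up 4 of the 1915 entries of the count table. All 4 were among the 605 entries that passed the filter on low counts.

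Small RNA was sequenced from CA1, the hippocampal field that carries the main output of the hippocampus, in a study on the link between heart failure and memory impairment. There were 10 libraries of transgenic mice given Vorinostat, also called SAHA, an inhibitor of histone deacetylases. A further 7 libraries came from transgenic mice given vehicle and 9 from wild type littermates given vehicle. All mice drank the agent or its vehicle in water for 4 weeks from an age of 2 months, so that they were 3 months old at the end. The transgenic line is named CamkdeltaC, for the delta C form of the kinase CaMKII, which causes heart failure when made in excess in heart muscle. The sources used here do not name the transgene's promoter, and a wild type group on Vorinostat was not analysed here. Both sexes were used. Whether every library comes from its own mouse is left unstated by the labels. The p-values thus measure the spread between libraries, which may in part be technical.

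In neurons, transcription of this cluster is driven by the transcription factor CREB and rises with synaptic activity and with the growth factor BDNF. miRNAs guide Argonaute proteins to messenger RNAs that match their seed (bases 2 to 8), which lowers the output of those messengers. miR-132-3p is known for promoting the growth of dendrites and spines. miR-212-3p reads the same seed, and the 5p arms are usually regarded as the partner strands.

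The mature sequences are shown because the shared seed is what joins the members into a family. They are given 5′ to 3′ from RefSeq (GRCm38.p6), with the seed in capitals.
miR-132-3p: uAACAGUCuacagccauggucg
miR-212-3p: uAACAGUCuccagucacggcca
miR-132-5p: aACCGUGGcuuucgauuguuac
miR-212-5p: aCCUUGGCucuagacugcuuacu
The seed AACAGUC occurred in 2 of the 1679 mature mouse miRNAs of the RefSeq table, miR-132-3p and miR-212-3p. These 3p arms were identical at 17 of 22 bases and differed, from miR-132-3p to miR-212-3p and counted from the 5′ end, by A10C, C14U, U17C, U20C and G22A. The 5p arms had different seeds and were identical at 14 of 21 aligned bases, with the first base of miR-212-5p set against the second of miR-132-5p. No member held the same counts as another entry of the table.

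The hairpins show how each pair of arms comes from a single precursor. The arms are in capitals.
Mir212: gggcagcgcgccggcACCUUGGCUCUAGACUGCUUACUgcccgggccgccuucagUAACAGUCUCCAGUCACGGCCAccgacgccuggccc
Mir132: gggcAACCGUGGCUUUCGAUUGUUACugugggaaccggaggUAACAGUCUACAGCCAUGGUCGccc
The Mir212 hairpin lies at chr11:75173388-75173478 and the Mir132 hairpin at chr11:75173682-75173747, both on the plus strand of GRCm38, the assembly that mm10 denotes. They are 203 bases apart and both fall in the first intron of the non-coding gene 1700016P03Rik (chr11:75172560-75177633, plus strand, GENCODE).

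Total counts, in mega-counts (M), ranged from 3.89 to 15.7 M in the Vorinostat libraries, from 6.02 to 24.8 M in transgenic vehicle and from 0.585 to 17.6 M in wild type. The shallowest library was wild type replicate 1, with 281 reads of miR-132-3p, 364 of miR-132-5p, 11 of miR-212-3p and 383 of miR-212-5p. Vorinostat replicate 8, the shallowest of the Vorinostat libraries, held 38 reads of miR-212-3p. The column names of the counts carry 2 sequencing lanes, L001 and L002, which held 4 and 6 Vorinostat, 3 and 4 transgenic vehicle, and 6 and 3 wild type libraries. Every miRNA of the neuron marker list (6 of 6) was counted, and their summed level was 324400 to 472900 CPM (counts per 1e6 counts) with Vorinostat, 317900 to 396900 CPM in transgenic vehicle and 196700 to 387900 CPM in wild type. Most of this sum was miR-128-3p, with means of 260200, 210500 and 209600 CPM in the same order. Of the 6 markers, 1 was higher and 5 were lower in the estimate with Vorinostat than in transgenic vehicle (median log2 difference -0.24).

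miR-132-5p was the most abundant member, with a mean of 1402 CPM over the 26 libraries, which placed it at rank 56 of the table. CPM here are taken after scaling by trimmed-mean (TMM) factors. miR-132-3p followed with 904 CPM (rank 71) and miR-212-5p with 704 CPM (rank 75). miR-212-3p was the rarest, at 23.8 CPM (rank 272). Compared between different sequences, such counts also carry the efficiency of library preparation for each sequence. Together the 4 members took 3275 ± 328 CPM with Vorinostat (SD, n = 10), 2841 ± 205 CPM in transgenic vehicle (SD, n = 7) and 2917 ± 371 CPM in wild type (SD, n = 9).

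miR-132-3p, the arm known for its role in dendrite growth, had a lowest, median and highest level of 631, 946 and 1163 CPM with Vorinostat. In transgenic vehicle these were 601, 859 and 1024 CPM, and in wild type 585, 973 and 1059 CPM. The 3 groups overlapped, and the mean was 953 ± 162 CPM with Vorinostat (SD, n = 10), 846 ± 145 CPM in transgenic vehicle (SD, n = 7) and 895 ± 158 CPM in wild type (SD, n = 9).

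miR-132-5p reached 981, 1536 and 2026 CPM (lowest, median and highest) with Vorinostat. It stood at 1114, 1268 and 1714 CPM in transgenic vehicle and at 757, 1262 and 1925 CPM in wild type. The widest spread was in wild type, where the shallow replicate 1 was the lowest library and replicate 6 the highest. Means were 1516 ± 274 CPM with Vorinostat (SD, n = 10), 1313 ± 224 CPM in transgenic vehicle (SD, n = 7) and 1344 ± 329 CPM in wild type (SD, n = 9).

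miR-212-3p, which shares the seed of miR-132-3p, had 12.1, 24.4 and 33.9 CPM (lowest, median and highest) with Vorinostat, 17.7, 24.4 and 36.8 CPM in transgenic vehicle and 16.7, 22.9 and 33.2 CPM in wild type. The Vorinostat libraries divided by lane: 4 of L001 had 28.03 ± 4.72 CPM (SD, n = 4) and 6 of L002 had 20.1 ± 8.02 CPM (SD, n = 6). In transgenic vehicle the means were 28.1 CPM in L001 (n = 3) and 22.4 CPM in L002 (n = 4). In wild type the medians were 25.05 CPM in L001 (n = 6) and 22.1 CPM in L002 (n = 3). The L001 value was thus the higher in each group, with overlap between lanes.

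miR-212-5p had a lowest, median and highest level of 598, 754 and 981 CPM with Vorinostat. In transgenic vehicle it kept to a narrow range, with 609, 647 and 741 CPM, while wild type libraries had 464, 684 and 797 CPM. Vorinostat libraries lay both above and within the transgenic vehicle range: 5 of 10 exceeded its highest library and 1 of 10 was below its lowest. Means were 782 ± 140 CPM with Vorinostat (SD, n = 10), 657 ± 43.5 CPM in transgenic vehicle (SD, n = 7) and 655 ± 103 CPM in wild type (SD, n = 9).

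**Figure D1:**
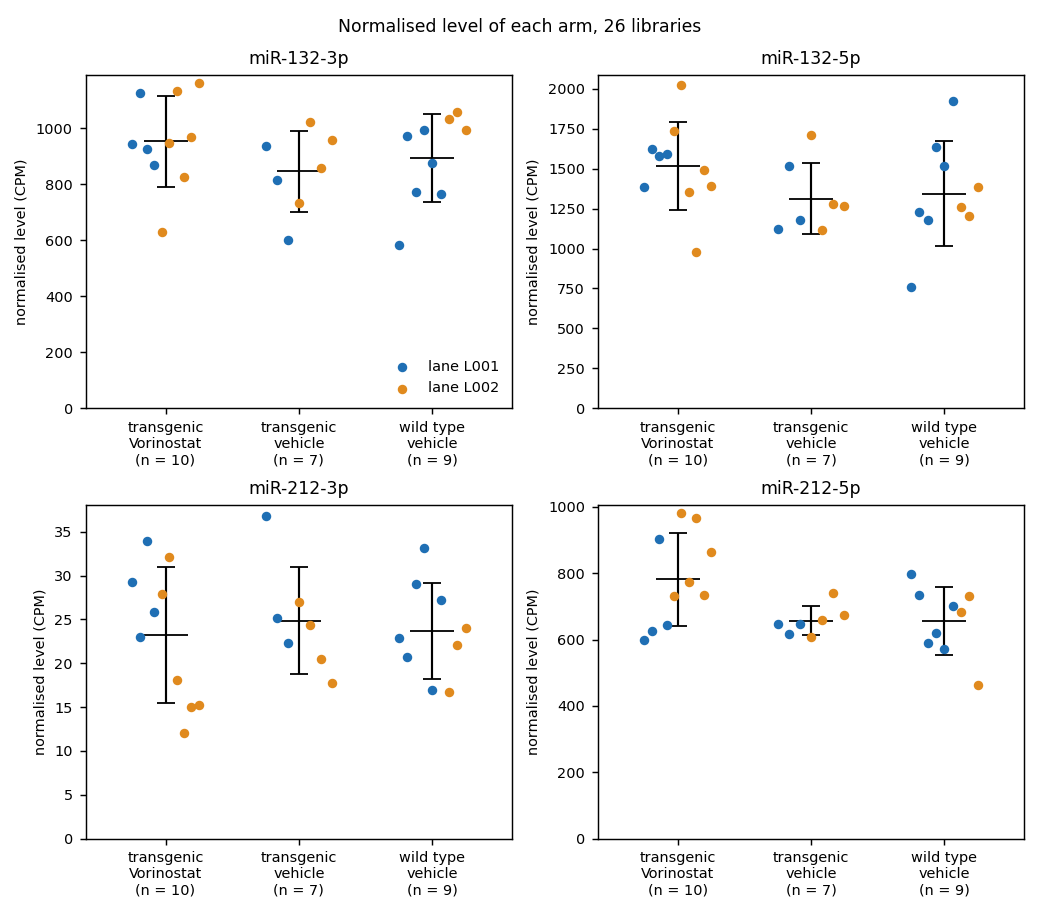
Normalised level of each arm (CPM, linear axis from 0) in 10 Vorinostat, 7 transgenic vehicle and 9 wild type libraries; points are libraries coloured by lane, horizontal bars are group means and whiskers are 1 SD. The groups overlap in all 4 panels, and miR-212-5p in transgenic vehicle runs from 609 to 741 CPM.

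The first comparison asks whether Vorinostat changed the cluster in transgenic mice. None of the 4 members passed the threshold of an adjusted p under 0.05 in edgeR's quasi-likelihood test with Benjamini-Hochberg adjustment over 605 miRNAs. In that comparison 0% of all tested miRNAs passed, and 21 (3.47%) had an unadjusted p under 0.05. By DESeq2 the counts were 0 past the threshold and 26 unadjusted, and by limma voom 0 and 16. The log2 difference, Vorinostat over transgenic vehicle, was 0.25 for miR-212-5p (SE 0.13, 95% interval -0.02 to 0.52, unadjusted p = 0.0639, adjusted p = 0.836 by edgeR), with 7 of 10 Vorinostat libraries above the transgenic vehicle mean. For miR-132-5p it was 0.21 (SE 0.16, interval -0.12 to 0.53, adjusted p = 0.836 by edgeR), with 9 of 10 above that mean. For miR-132-3p it was 0.17 (SE 0.15, interval -0.13 to 0.47, adjusted p = 0.836 by edgeR), with 8 of 10 above. miR-212-3p had -0.09 (SE 0.21, interval -0.52 to 0.33, adjusted p = 0.921 by edgeR), with 5 of 10 above. Single libraries moved the estimates: without Vorinostat replicate 7 that of miR-132-3p was 0.0718, and without transgenic vehicle replicate 8 that of miR-132-5p was 0.11. Rises up to the upper bounds of 0.47 to 0.53 for miR-132-3p, miR-132-5p and miR-212-5p lie within the intervals, so these libraries do not exclude them. The median over all tested miRNAs was -0.0098.

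In this comparison libraries of both groups share replicate numbers, but no label says what these mark. The deviations of same-numbered libraries correlated, and the same-numbered library was the best match in 3 of 7 pairs. With the number as a block (7 pairs, edgeR), 5 of 567 miRNAs (0.882%) passed, against 0 without the block, and no member was among them. miR-212-5p had a log2 difference of 0.32 (adjusted p = 0.108) and miR-212-3p of -0.18 (adjusted p = 0.588) with the block. The miRNAs past the threshold were miR-129-5p, miR-182-5p and miR-379-5p, higher with Vorinostat, and miR-29c-3p and miR-339-5p, lower. Within lanes, the unblocked difference of miR-212-5p was 0.08 in L001 (4 against 3 libraries) and 0.31 in L002 (6 against 4). With library totals in place of TMM factors it was 0.10, and the median over all tested miRNAs moved by -0.13, to -0.14. Relative to that median, miR-212-5p stood at 0.24 with library totals and 0.26 with TMM factors.

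The second comparison sets Vorinostat-treated transgenic mice against wild type mice, which differ in both genotype and agent. It shares its Vorinostat libraries with the first. Again 0 of 4 members and 0% of the 605 miRNAs passed by edgeR, DESeq2 and limma voom, with 19, 29 and 23 miRNAs at an unadjusted p under 0.05. miR-212-5p was the one member among those 19 of edgeR (3.14%), with a log2 difference of 0.26 (SE 0.12, interval 0.0075 to 0.51, unadjusted p = 0.0439, adjusted p = 0.9997 by edgeR) and 7 of 10 Vorinostat libraries above the wild type mean. By lane this difference was 0.03 in L001 and 0.40 in L002. It was 0.17 without wild type replicate 9 and 0.16 with library totals. Relative to the median over all tested miRNAs, miR-212-5p stood at 0.25 with library totals and 0.24 with TMM factors. miR-132-5p had 0.17 (SE 0.15), or 0.0563 without wild type replicate 1, and miR-132-3p had 0.09 (SE 0.14). miR-212-3p had -0.02 (SE 0.20), with an interval of -0.43 to 0.38. The sign of miR-132-3p turned with library totals and that of miR-212-3p with lane as a covariate.

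The third comparison, transgenic vehicle over wild type vehicle, asks what the transgene alone did. It shares its libraries with the other comparisons. No member passed, nor did any of the 605 miRNAs (0%) by edgeR, DESeq2 or limma voom, with 13 (2.15%), 18 and 7 at an unadjusted p under 0.05. All 4 members lay close to 0. The log2 differences were -0.08 for miR-132-3p (SE 0.15, interval -0.38 to 0.22), -0.03 for miR-132-5p (SE 0.16, interval -0.37 to 0.30), 0.07 for miR-212-3p (SE 0.21, interval -0.37 to 0.51) and 0.0044 for miR-212-5p (SE 0.13, interval -0.27 to 0.28). Of the 7 transgenic vehicle libraries, 3, 2, 4 and 3 exceeded the wild type mean of these members in the same order. A change of 1 log2 unit in either direction was outside every interval.

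**Figure D2:**
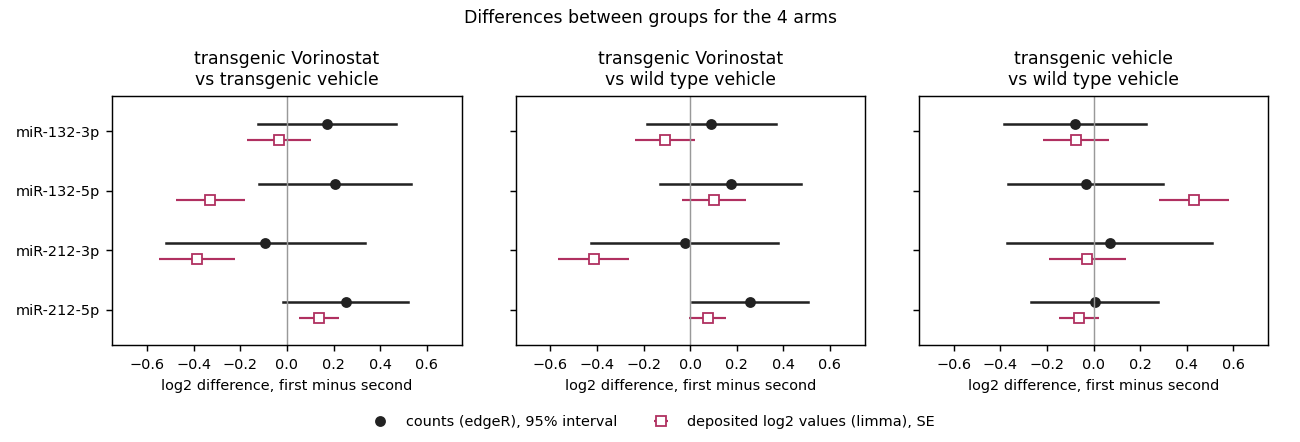
Log2 difference of each arm in the 3 comparisons, first-named group minus second; filled circles are edgeR estimates from counts with 95% intervals, and open squares are limma estimates from the deposited normalized values with 1 SE. The count-based intervals include 0 except that of miR-212-5p for Vorinostat against wild type. The deposited values move farthest from the counts for miR-132-5p and miR-212-3p, and for miR-132-3p they turn the sign in the Vorinostat comparisons.

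Ratios within a library need no scaling factor, and they show how the arms and the hairpins stood to each other. The 5p arm exceeded the 3p arm in all 26 libraries, by 1.48-fold for miR-132 and 28.1-fold for miR-212 at the median library. The 3p share of miR-132 reads was 38.9 ± 6.29% with Vorinostat (SD, n = 10), 39.3 ± 6.63% in transgenic vehicle (SD, n = 7) and 40.4 ± 5.61% in wild type (SD, n = 9). Over all libraries it ran from 26.7% in Vorinostat replicate 5 (Wilson 95% interval 26.2 to 27.1%) to 47.9% in transgenic vehicle replicate 8 (47.3 to 48.5%). The ratio of 3p to 5p thus spanned 2.53-fold over the 26 libraries of the 3 groups.

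For miR-212 the 3p share was 2.98 ± 1.10% with Vorinostat (SD, n = 10), 3.67 ± 0.970% in transgenic vehicle (SD, n = 7) and 3.58 ± 1.06% in wild type (SD, n = 9). It was lowest in Vorinostat replicate 8, at 1.23% (38 of 3077 reads, Wilson 95% interval 0.901 to 1.69%), and highest in transgenic vehicle replicate 2, at 5.39% (957 of 17751 reads, 5.07 to 5.73%). Intervals cover counting error only, since reads without molecular identifiers are not independent molecules. The 4 lowest shares, from 1.23 to 2.28%, all belonged to Vorinostat libraries of lane L002. Within L002 the share was 2.35 ± 0.913% with Vorinostat (SD, n = 6), 3.27 ± 0.786% in transgenic vehicle (SD, n = 4) and 3.42 ± 1.34% in wild type (SD, n = 3). Within L001 the order differed, with 3.93 ± 0.521% for Vorinostat (SD, n = 4), 4.21 ± 1.06% for transgenic vehicle (SD, n = 3) and 3.65 ± 1.03% for wild type (SD, n = 6).

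None of the 9 ratio comparisons passed (two-sided exact permutation tests, adjusted p = 0.88 for each over 9 tests). The log2 ratio of 3p to 5p of miR-212 differed by -0.37 between Vorinostat and transgenic vehicle (exact permutation p = 0.184) and by -0.33 between Vorinostat and wild type (exact permutation p = 0.205). Without Vorinostat replicate 8, which held 38 reads of miR-212-3p, these differences were -0.24 and -0.20. In 7 same-numbered pairs of Vorinostat and transgenic vehicle libraries the ratio was lower with Vorinostat in 6 and higher in 1, with a mean difference of -0.51 (exact sign-flip permutation p = 0.0469, adjusted p = 0.422). That of miR-132 differed by -0.03 between Vorinostat and transgenic vehicle, -0.10 between Vorinostat and wild type and -0.07 between transgenic vehicle and wild type. The ratio of miR-132 to miR-212, both arms summed, was 1.63 ± 0.326 on the log2 scale with Vorinostat (SD, n = 10), 1.66 ± 0.190 in transgenic vehicle (SD, n = 7) and 1.71 ± 0.446 in wild type (SD, n = 9).

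**Figure D3:**
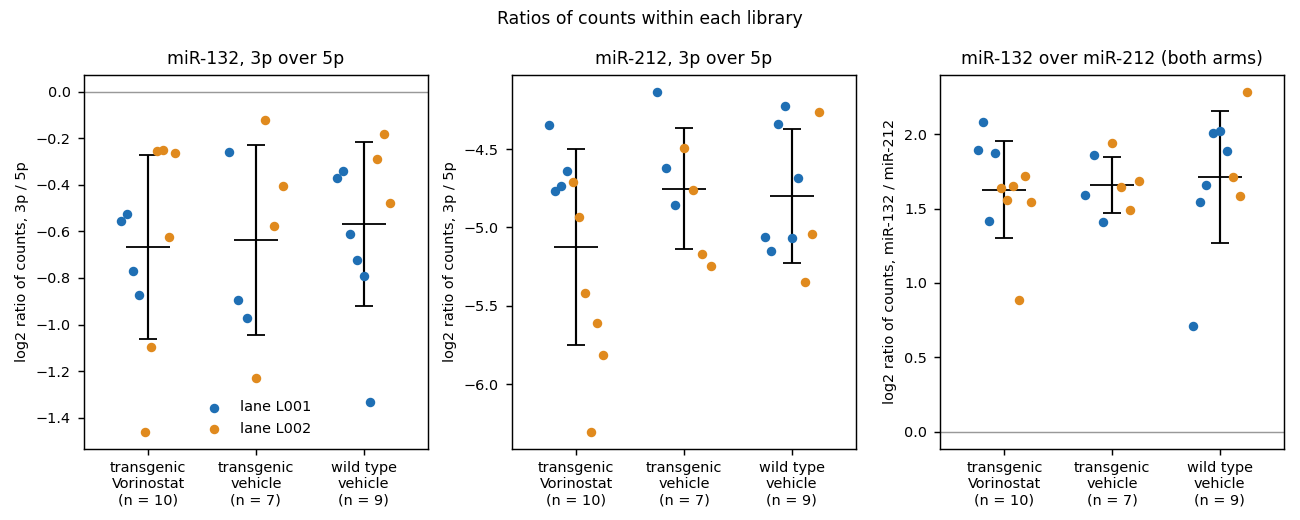
Log2 ratios of counts within each library for the arms of miR-132, the arms of miR-212, and miR-132 over miR-212; points are libraries coloured by lane, horizontal bars are group means and whiskers are 1 SD. The spread within each group is wide beside the differences between groups, and the 4 lowest miR-212 arm ratios are Vorinostat libraries of L002.

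Whether the members varied together across libraries was tested for their 6 pairs on log2 CPM (26 libraries, permutation tests, 100000 resamples, two-sided). The partner arms of miR-132 had Pearson's r = 0.18 (p = 0.379) and Spearman's ρ = -0.0222 (p = 0.914), and r was -0.257 without the 2 libraries farthest from the median. For the partner arms of miR-212, r was -0.233 (p = 0.253) and ρ -0.275 (p = 0.175), with r = -0.0269 without the 2 farthest. The 3p arms, which share the seed, had r = -0.195 (p = 0.342) and ρ = -0.285 (p = 0.158), with r = -0.27 without the 2 farthest. No pair passed after adjustment over the 6 pairs (lowest adjusted p = 0.568 for r and 0.351 for ρ).

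The highest correlation was between miR-132-5p and miR-212-3p (r = 0.334, permutation p = 0.0949; ρ = 0.363, permutation p = 0.0688), and r was 0.343 without the 2 farthest libraries. It was 0.107 within lane L001 and 0.663 within lane L002 (13 libraries each, adjusted permutation p = 0.727 and 0.0797). With library totals in place of TMM factors, r was 0.576 and the pair passed (adjusted permutation p = 0.0125), so the call depends on the scaling. The arms of miR-132 likewise differed by lane, with r = 0.568 in L001 and -0.331 in L002, and neither passed.

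The 5 miRNAs whose level was most like that of miR-132-3p were found by Spearman's ρ of log2 CPM over the 26 libraries, among 604 other tested miRNAs. They were miR-540-3p (ρ = 0.78), miR-935 (0.775), miR-126a-3p (0.727), an endothelial miRNA, miR-344-3p (0.722) and miR-877-3p (0.719). Without wild type replicate 1 and Vorinostat replicate 8 these 5 values of ρ ran from 0.723 to 0.786, and within lanes from 0.615 to 0.863. All miRNAs of a library share its scaling factor and depth, and the part of these in the correlations was not tested. Ranked by ρ with miR-132-3p, miR-212-5p stood at 277 (ρ = 0.0817), miR-132-5p, the hairpin partner of miR-132-3p, at 318 and miR-212-3p at 451. In the authors' deposited table of co-expression modules, miR-132-3p was in the yellow module (membership 0.859), miR-132-5p and miR-212-3p in the turquoise (0.846 and 0.513) and miR-212-5p in the blue (0.47). The authors' deposited table gave miR-212-3p a higher membership in the brown module (0.632) than in its own. The 4 products fell into 3 of the authors' 5 modules. Of the 674 miRNAs in that table, turquoise held 404, blue 197 and yellow 25. Whether the members were spread otherwise than any 4 miRNAs was not tested.

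The authors also deposited normalized log2 values for 674 miRNAs, and for some members these values did not follow the counts. For miR-132-5p they averaged 11.39 ± 0.247 with Vorinostat (SD, n = 10), 11.72 ± 0.284 in transgenic vehicle (SD, n = 7) and 11.29 ± 0.330 in wild type (SD, n = 9). The deposited value exceeded log2(CPM + 0.5) by 0.85 with Vorinostat, 1.38 in transgenic vehicle and 0.94 in wild type. The offset of miR-212-3p was 1.17 with Vorinostat, 1.42 in transgenic vehicle and 1.52 in wild type. Those of the other members were smaller in size: -0.11, 0.10 and 0.09 for miR-132-3p, and 0.16, 0.26 and 0.34 for miR-212-5p, for Vorinostat, transgenic vehicle and wild type. From transgenic vehicle to Vorinostat the offset shifted by -0.21 for miR-132-3p and -0.53 for miR-132-5p. The shift was -0.25 for miR-212-3p and -0.10 for miR-212-5p. The sources used here do not say how the authors made these values, and the cause of the offsets was not tested.

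On those values limma called 366 of 674 miRNAs (54.3%) between transgenic vehicle and wild type, and 360 (53.4%) between Vorinostat and transgenic vehicle, so that a call there is near the background. Of the members, miR-132-5p was higher in transgenic vehicle than in wild type by 0.43 (SE 0.15, adjusted p = 0.0191 by limma), where the counts gave -0.03. Between Vorinostat and transgenic vehicle miR-212-3p was lower by limma (log2 difference -0.39, SE 0.16, adjusted p = 0.0462), and miR-132-5p had -0.33 (SE 0.15, adjusted p = 0.0614), where the counts gave 0.21. Between Vorinostat and wild type limma called 6 miRNAs (0.89%) and no member. There miR-212-3p had -0.41 (SE 0.15, adjusted p = 0.191) and miR-212-5p 0.08 (SE 0.08, adjusted p = 0.827).

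**Figure D4:**
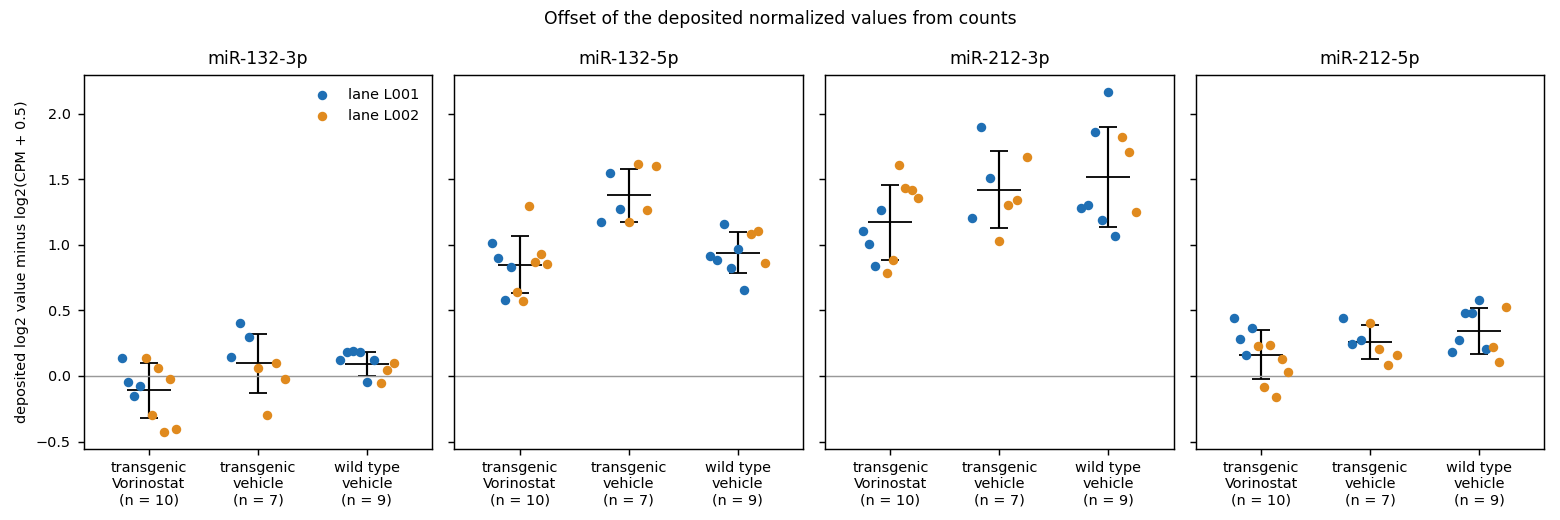
Deposited normalized log2 value minus log2(CPM + 0.5) for each arm and library; points are libraries coloured by lane, horizontal bars are group means and whiskers are 1 SD. The offset of miR-132-5p averages 1.38 in transgenic vehicle, above the 0.85 of Vorinostat and the 0.94 of wild type.

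Other miRNAs tied to neuronal activity and plasticity were taken from a list of 33, all of them tested. None passed in any comparison by edgeR without the replicate block. With the block, between Vorinostat and transgenic vehicle, 2 of the 32 then tested passed, where 0.882% of all miRNAs did. These were miR-182-5p (log2 difference 1.34, adjusted p = 0.042 by edgeR) and miR-379-5p (0.56, adjusted p = 0.042 by edgeR), both higher with Vorinostat. Without the block 11 list members were higher and 22 lower in the estimate, with a median log2 difference of -0.12, beside 298 higher and 307 lower over all tested miRNAs. At an unadjusted p under 0.05 were 4 of the 33, beside 3.47% of all. Unblocked values were 1.28 for miR-182-5p (SE 0.57), -0.41 for miR-181c-5p (SE 0.19) and 0.31 for miR-128-3p (SE 0.14), a neuronal miRNA. The dendritic miR-134-5p had 0.27 (SE 0.23), the pan-neuronal miR-124-3p -0.33 (SE 0.30) and the spine regulator miR-138-5p -0.16 (SE 0.24).

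Against wild type, Vorinostat gave 14 higher and 19 lower list members, a median of -0.03 and 2 at an unadjusted p under 0.05, beside 320 higher, 285 lower and 3.14% unadjusted over all tested miRNAs. There miR-188-5p had -0.78 (SE 0.30), miR-128-3p 0.31 (SE 0.13) and miR-410-3p -0.27 (SE 0.18). The value of miR-188-5p rests on very low levels, with means of 0.656 CPM with Vorinostat and 1.09 CPM in wild type. The other list members named had 0.10 (miR-134-5p, SE 0.21), -0.09 (miR-124-3p, SE 0.28) and -0.03 (miR-138-5p, SE 0.22). Between transgenic vehicle and wild type 22 were higher and 11 lower, with a median of 0.13 and 4 at an unadjusted p under 0.05, beside 329 higher, 276 lower and 2.15% unadjusted over all tested miRNAs. The values were -1.59 for miR-182-5p (SE 0.59), 0.95 for miR-219a-5p (SE 0.39) and -1.29 for miR-183-5p (SE 0.55), with -0.18 for miR-134-5p (SE 0.23), 0.24 for miR-124-3p (SE 0.31) and 0.13 for miR-138-5p (SE 0.25). Levels of miR-219a-5p, which is also on the oligodendrocyte list, were low, with means of 4.55 CPM in transgenic vehicle and 2.14 CPM in wild type. The medians over all tested miRNAs were 0.014 for Vorinostat against wild type and 0.025 for transgenic vehicle against wild type. The level of miR-182-5p averaged 112 ± 72.7 CPM with Vorinostat (SD, n = 10), 46.0 ± 10.04 CPM in transgenic vehicle (SD, n = 7) and 145 ± 255 CPM in wild type (SD, n = 9). The list of 3 miRNAs of thalamus and sensory tissue, which holds miR-182-5p and miR-183-5p, summed to 96.4 to 511 CPM in Vorinostat libraries, 60.0 to 141 CPM in transgenic vehicle libraries and 50.8 to 1330 CPM in wild type libraries. The part of neighbouring tissue in these values was not tested.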

How the data were processed

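The counts deposited by the authors are raw, with 1 value per mature miRNA, for 26 libraries (1915 entries), and log2 normalized values for 674 miRNAs, whose making is not given by the labels. Per the labels' protocols, TruSeq Small RNA libraries were sequenced as single reads on a HiSeq2000. FastQC 0.11.5 and the mm10 build appear in the submitters' processing notes. No aligner, annotation or counting setting is named, so the counted sequences may differ from those of RefSeq. Another deposited table holds memberships of the authors' 5 co-expression modules.

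Counts were filtered with filterByExpr (minimum count 10, total 15), scaled with TMM factors and tested in edgeR 4.0.16 (R 4.3.3) by quasi-likelihood, in 1 model over the 3 groups, two-sided, with Benjamini-Hochberg adjustment over 605 miRNAs and a threshold of 0.05. The procedure was tested on simulated data. DESeq2 1.42.0, limma 3.58.1 voom, and limma on the deposited log2 values were alternatives, as were other scalings, filters, lanes and left-out libraries. Ratios within libraries had 0.5 added to each count. Exact permutation tests were computed with NumPy 2.4.6, and Wilson intervals with SciPy 1.17.1.

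No label says what the replicate numbers mark. These numbers were used as a block in an alternative fit of each comparison. Between Vorinostat and transgenic vehicle the deviations of all 7 same-numbered pairs correlated (0.265 to 0.599). The same-numbered library was the best match in 3 of these 7 pairs. Lane was not removed from the deviations, so a pairing of animals is not established. Of the pairs with wild type, 4 of 6 (transgenic vehicle) and 6 of 9 (Vorinostat) exceeded 0.1, so a pairing is less clear there. The blocked fits of these comparisons gave 0 calls. The members and lists were chosen with earlier results of these data known. Besides the members, the text names the 5 miRNAs most like miR-132-3p and, from the activity list, the 3 with the smallest unadjusted p in a comparison and always miR-124-3p, miR-134-5p and miR-138-5p. The 5 miRNAs called with the replicate block were named after their values were seen. Of the other marker lists, oligodendrocyte, microglia and leukocyte, endothelium, erythrocyte, choroid plexus and ependyma, and hindbrain, no member passed by edgeR, with all 3 groups in 1 fit or, between Vorinostat and transgenic vehicle, with the replicate block.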

Additional observations from a re-analysis of the deposited data

Results flagged for a closer look

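Wild type replicate 1 stood apart from the other 8 wild type libraries in the log2 ratio of miR-132 to miR-212, at 0.7104, with the nearest other library at 1.542. The gap was 0.528 of the group's range, above Dixon's 95% critical value of 0.493 for 9 libraries. It was the shallowest library, with 645 reads of miR-132 and 394 of miR-212. This was 1 of 21 groups of values examined, and chance marks about 1 in 20. Without this library the difference in the ratio was -0.18 between transgenic vehicle and wild type and -0.21 between Vorinostat and wild type, against -0.05 and -0.09 with it.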

How the results depend on the processing

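Leaving leave-one-out fits aside, 230 of the recomputed values kept their direction and side of the threshold, 34 changed sign, 2 passed the threshold in the same direction and 4 counts of calls moved. Differences below are log2 and stand as first over second group. By limma on the deposited values 366 (transgenic vehicle over wild type), 360 (Vorinostat over transgenic vehicle) and 6 (Vorinostat over wild type) miRNAs passed, against 0 from counts. There transgenic vehicle over wild type gave 0.43 for miR-132-5p, which passed, -0.0272 for miR-212-3p and -0.0624 for miR-212-5p. Vorinostat over transgenic vehicle gave -0.0348 for miR-132-3p, -0.33 for miR-132-5p and -0.39 for miR-212-3p, which passed, and Vorinostat over wild type gave -0.11 for miR-132-3p. The cause was not tested.

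The replicate block gave 5 calls between Vorinostat and transgenic vehicle and 0 in the other comparisons. It changed no other call. The same libraries without the block, chosen after seeing the data, gave 0 calls and 0.0057 for miR-212-3p (Vorinostat over wild type).

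For miR-212-5p, transgenic vehicle over wild type was -0.0502 with a mean of at least 10 CPM, -0.0221 with lane as a covariate and -0.0474 within L001. For miR-132-5p it was 0.0529 within L002. Vorinostat over wild type was -0.0125 for miR-132-3p with library totals and -0.15 within L002. For miR-212-3p it was 0.0551 with lane as a covariate, 0.12 within L001 and 0.0064 without the 2 shallow libraries.

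Within L001 the arm ratio of miR-132 gave 0.0267 (Vorinostat over transgenic vehicle) and 0.0129 (over wild type), that of miR-212 0.13 (over wild type), and miR-132 to miR-212 0.20 and 0.18. Within L002 the miR-212 arm ratio gave -0.0299 (transgenic vehicle over wild type). Without the 2 shallow libraries miR-132 to miR-212 gave 0.048 (Vorinostat over transgenic vehicle).

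With library totals r was 0.229 for miR-132-3p and miR-212-3p, -0.079 for miR-132-3p and miR-212-5p, 0.576 for miR-132-5p and miR-212-3p, which passed, and 0.0509 for the arms of miR-212. With group means removed r was -0.11 for miR-132-3p and miR-212-5p. Within L001 it was 0.234 for the 3p arms, -0.187 for miR-132-3p and miR-212-5p and 0.184 for the arms of miR-212. Within L002 it was -0.331 for the arms of miR-132 and 0.0224 for the 5p arms, and without the 2 shallow libraries -0.177 and 0.237.

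Leaving out 1 library at a time changed no call. Transgenic vehicle over wild type ranged from -0.13 to 0.0556 for miR-132-5p, -0.0564 to 0.16 for miR-212-3p and -0.0176 to 0.0557 for miR-212-5p. Vorinostat over wild type ranged from -0.0103 to 0.14 for miR-132-3p and -0.12 to 0.0507 for miR-212-3p. Vorinostat over transgenic vehicle ranged from -0.21 to 0.031 for miR-212-3p. The ratios ranged from -0.16 to 0.0306 (miR-132 arms), -0.0579 to 0.13 (miR-212 arms) and -0.18 to 0.0194 (miR-132 to miR-212) for transgenic vehicle over wild type, and from -0.13 to 0.0577 (miR-132 arms) and -0.0853 to 0.048 (miR-132 to miR-212) for Vorinostat over transgenic vehicle. Without changing sign, Vorinostat over transgenic vehicle ranged from 0.0718 to 0.22 for miR-132-3p, 0.11 to 0.27 for miR-132-5p and -0.46 to -0.24 for the miR-212 arms, and Vorinostat over wild type from 0.0563 to 0.23 for miR-132-5p and -0.41 to -0.20 for the miR-212 arms. miR-212-5p also kept its sign, from 0.17 to 0.28 for Vorinostat over wild type and from 0.17 to 0.26 for Vorinostat over transgenic vehicle. Depth limits miR-212-3p most, with 11 reads in the shallowest library.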
